A study of Mus musculus with 12 samples.

Results

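Effector CD4+ T cells (Teff, sorted as Foxp3-) that had been cultured for 3 days with antibodies to CD3 and CD28 were set against Teff cells cultured for 3 days with the soluble ligands OX40L and JAG1. The comparison takes 4 of the 12 arrays of the series, 2 for each treatment, chosen by their titles and treatment labels. The series measured RNA of Foxp3- Teff and Foxp3+ regulatory (Treg) cells on Affymetrix Mouse Gene 2.0 ST arrays in 6 groups of 2, and asks how expansion through the T cell receptor differs from expansion without it. All groups were splenic CD4+ cells of 8-week-old C57BL/6-Foxp3.GFP reporter mice, in which green fluorescence marks cells that express Foxp3. The antibodies were used at 2 µg/ml each, OX40L at 5 µg/ml and JAG1 at 1 µg/ml. Control Teff cells were fresh and had no culture, so they differ from both treated groups in culture as well as in treatment. Treg and Teff cells were kept together during treatment and sorted afterwards, and "Teff" here means every sorted CD4+ cell without the Foxp3 reporter, with no further marker. The labels name neither the sex of the mice nor separate mice or cultures for the replicates. The p-values and SE therefore rest on a spread between replicate arrays that may be technical. That spread was pooled over all 12 arrays with 1 weight per group, so it is not the spread of the 4 compared arrays alone.

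Antibodies to CD3 and CD28 imitate the antigen signal and the costimulus of a T cell. Signalling through both leads T cells to make the IL-2 receptor, enter the cell cycle, switch to glycolysis and lipid synthesis, and produce effector cytokines. OX40, encoded by Tnfrsf4, is a TNF receptor family member that appears on activated T cells and signals through TRAF adaptors to NF-kappaB. JAG1 is a ligand of Notch receptors, whose cleaved intracellular part joins RBPJ and MAML proteins in the nucleus and switches on targets such as Hes1 and Dtx1.

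The OX40L-JAG1 Teff arrays stood apart before any gene was compared. In the deposited values their range was narrow, with an SD over genes of 1.71 and 1.49, against 1.95 to 2.19 in the other 10 arrays. The arrays were quantile normalized for this reason, and the cause of the narrow range was not tested. The correlation of the 2 OX40L-JAG1 Teff arrays over genes was 0.881, against 0.983 to 0.994 for the replicates of the other 5 groups. The SD of the difference between replicates was 0.921 on the log2 scale, against 0.222 to 0.363. Replicate B alone had 1053 of 41345 table entries at least 2 log2 units above all 11 other arrays, replicate 1 had 49, and each of the other 10 arrays had 2 or fewer. Each group therefore received its own weight in the fit (0.138 for OX40L-JAG1 Teff, 0.94 to 2.55 for the others), and most calls are also given without replicate B. A fit without 1 array leaves 1 array in that group and keeps the weight set with both. It measures no spread within that group, so passing or failing in such a fit is no test of reproducibility. The labelled cell type was checked against its markers. Cd4 had 9.87 and 9.91 in the anti-CD3-CD28 arrays and 9.83 and 9.79 in the OX40L-JAG1 arrays (replicate 1, then replicate B, here and below, as normalized log2 intensity). Foxp3 lay at 5.67 and 5.82 with anti-CD3-CD28 and 7.20 and 6.87 with OX40L-JAG1, against 5.58 in both Control Teff arrays and 10.27 to 11.40 in the 6 Treg arrays. Foxp3 was thus lower in all Teff arrays than in any Treg array, and its difference between the treatments, -1.29 ± 0.38 (SE), did not pass the test (adjusted p = 0.113). Some transcripts of neutrophils, basophils and other myeloid cells were high in both OX40L-JAG1 Teff arrays, and their values are given with the genes that were lower with anti-CD3-CD28. Of 17 basophil and mast cell genes, 14 lay above the array median in OX40L-JAG1 replicate 1 and 7 in replicate B. In each anti-CD3-CD28 array 7 did.

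Differences are given as anti-CD3-CD28 Teff minus OX40L-JAG1 Teff on the log2 scale, where 1 is a 2-fold difference, with their SE and with n = 2 arrays a group. A gene passed at an adjusted p under 0.05 (limma, Benjamini-Hochberg over 22180 genes). Of these, 430 were higher with anti-CD3-CD28 (1.94%) and 64 lower (0.289%), with median differences of 2.07 and -2.67. The median over all genes was 0.041. The 2 arrays of one treatment lay wholly above those of the other in all 494, and over all genes in 27.4% in the higher and 19.4% in the lower direction. Without OX40L-JAG1 Teff replicate B, 20 genes were higher (0.0902%) and 19 lower (0.0857%), 37 of these 39 among the 494 and all 37 in the same direction. Without replicate 1 of that group, 499 were higher (2.25%) and 123 lower (0.555%), of which 278 were shared. Using only the 4 arrays of the comparison left 11 genes. These were Il10, Ifi204, Il12rb2 and Ccr8, higher with anti-CD3-CD28, and Lyz2, Mcpt8, Hspa1a, S100a8, S100a9, Ngp and Ltf, lower. The arrays carry no detection call, so a group mean below 4.81, the median of every normalized array, is not shown to be above background. For 123 of the 430 higher and 28 of the 64 lower genes the dimmer group lay below it. The difference is then a lower bound as regards background only, since another normalization or set of arrays can give a smaller one. The label is repeated below for Il10 and Tigit only but holds for every gene whose dimmer group mean lay below 4.81. Among these are Il13, Il4, Ifng, Irf4, Hmmr, Ccne1, Ifi204, Trim30d and Mx2, and S100a8, S100a9, Ngp and Ltf in the lower direction.

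**Figure D1:**
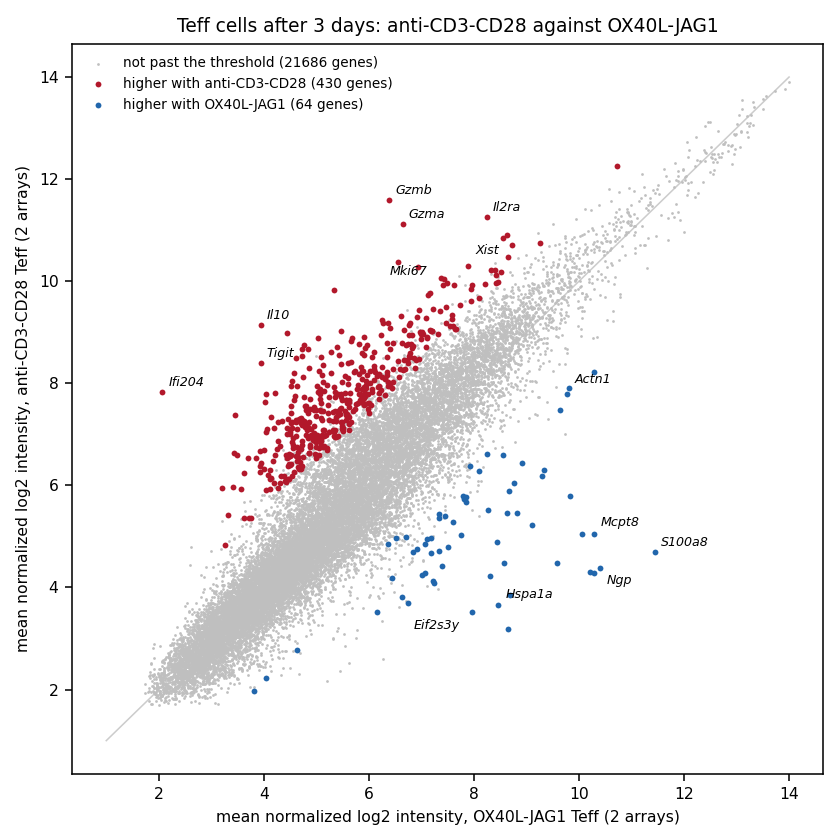
Mean normalized log2 intensity of 22180 genes in OX40L-JAG1 Teff cells (x axis, 2 arrays) and anti-CD3-CD28 Teff cells (y axis, 2 arrays), with the line of equal level. Red points are the 430 genes that were higher with anti-CD3-CD28 and blue points the 64 that were higher with OX40L-JAG1. Il10 and Gzmb lie far above the line, and S100a8 and Ngp far below it.

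Cytokines and granzymes held several of the largest differences. They were the anti-inflammatory cytokine Il10, the type 2 cytokines Il13 and Il4, the type 1 cytokine Ifng, and the granzymes Gzmb and Gzma, proteases of cytotoxic granules. Gzmb had 11.54 and 11.65 with anti-CD3-CD28, against 6.84 and 5.94 with OX40L-JAG1. The difference was 5.21 ± 0.44, or 36.9-fold (adjusted p = 8.08e-05), and the groups did not overlap. In Il10 the values were 9.04 and 9.26 against 3.83 and 4.05, a difference of 5.20 ± 0.46 (0.000106) that is a lower bound because both OX40L-JAG1 arrays lay under the array median. Il13 had 8.96 and 8.99 against 3.72 and 5.17 (4.53 ± 0.41, adjusted p = 0.000128). The anti-CD3-CD28 arrays lay close together in these 3 genes, while the OX40L-JAG1 arrays were more than 1 unit apart in Il13. Il4 was higher by 3.94 ± 0.52 (8.61 and 8.72 against 5.18 and 4.27) and Ifng by 3.11 ± 0.40 (7.64 and 7.72 against 4.81 and 4.33). Gzma showed the largest gap between replicates: 11.18 and 11.07 against 8.42 and 4.86 (4.48 ± 0.70, adjusted p = 0.00481). Gzmb, Il10 and Il13 passed without OX40L-JAG1 replicate B, and Gzma (2.70, adjusted p = 0.184), Il4 (3.49, 0.0973) and Ifng (2.87, 0.084) did not.

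Of 24 measured effector cytokines, 4 were higher with anti-CD3-CD28 and none lower, with a median difference of 0.65. Il17a, the cytokine that names Th17 cells, had 5.20 and 5.39 against 2.77 and 3.62 and did not pass (2.10 ± 0.52, adjusted p = 0.0571). Il2, the growth factor of T cells, was dim in all 4 arrays, at 2.92 and 3.13 against 3.23 and 3.37 (-0.27 ± 0.45, 0.886). Of 17 cytotoxic mediators only the 2 granzymes above passed, and the median was 0.32. Perforin (Prf1), which forms the pore through which granzymes enter a target, had 7.18 and 7.21 against 6.79 and 7.31, so its groups overlapped (0.14 ± 0.41, 0.947).

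**Figure D2:**
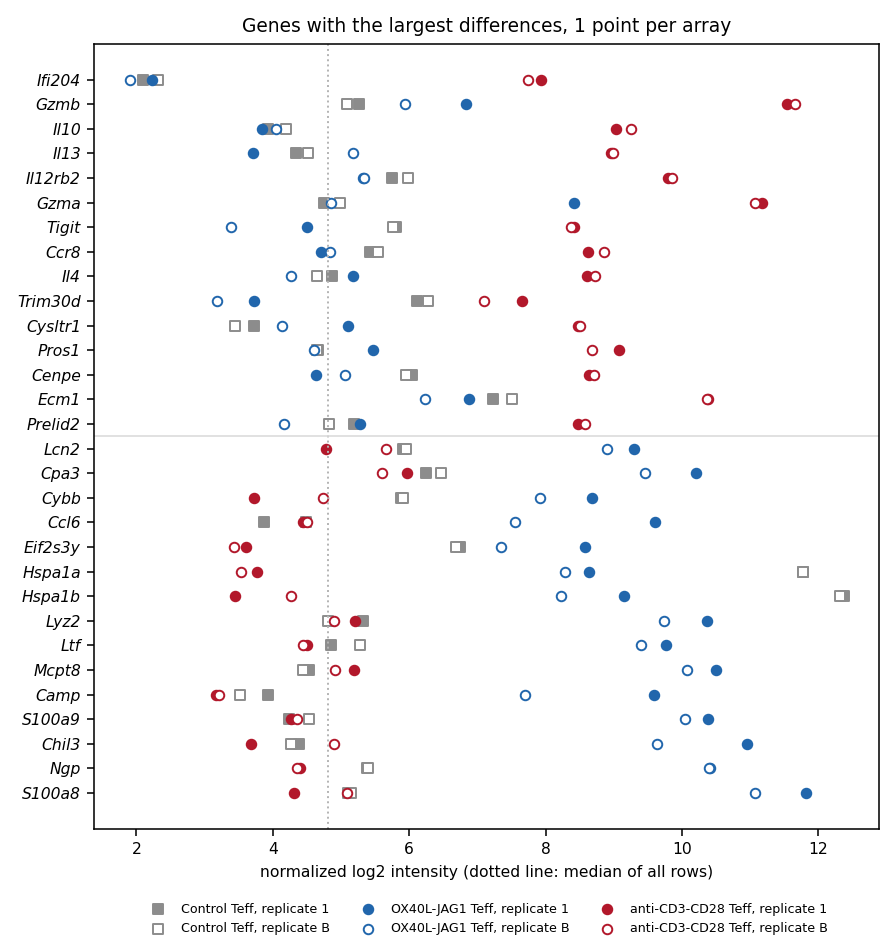
Normalized log2 intensity of the 15 largest higher and 15 largest lower genes among those that passed, with 1 point per array (red, anti-CD3-CD28 Teff; blue, OX40L-JAG1 Teff; grey squares, Control Teff; filled, replicate 1; open, replicate B). The dotted line is the median of all table entries, 4.81. The red and blue points do not overlap in any of the 30 genes, which was a condition of their choice. The blue points of Gzma (8.42 and 4.86) are the most spread of the upper 15.

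Among regulators of T helper lineages, both chains of the IL-12 receptor and the transcription factors Maf, Irf4, Nfil3 and Eomes were higher with anti-CD3-CD28. Il12rb2, the signalling chain of the IL-12 receptor, had 9.80 and 9.86 against 5.33 in both OX40L-JAG1 arrays (4.50 ± 0.57, adjusted p = 0.00147), and its partner chain Il12rb1 had 8.13 and 8.36 against 5.44 and 6.33 (2.36 ± 0.42, 0.0118). Maf, a transcription factor known to drive Il10 and Il4, had 8.32 and 8.27 against 4.93 and 4.78 (3.44 ± 0.35, 0.000321). Irf4, a transcription factor induced by the T cell receptor, had 7.27 and 7.40 against 4.27 and 4.02 (3.19 ± 0.35, 0.000652). Both factors were tight within each group and did not overlap between groups. Nfil3 was higher by 2.47 ± 0.45 (0.0123), and the T-box factor Eomes by 2.09 ± 0.40 (0.0169). In all, 8 of 30 measured regulators were higher and none lower, with a median of 0.83. The lineage factors of Th1 and Th2 cells did not pass: Tbx21, which encodes T-bet, had 7.30 and 7.06 against 6.53 and 6.13 (0.86 ± 0.41, 0.379). Gata3 had 8.15 and 8.34 against 7.18 and 6.64 (1.34 ± 0.33, 0.0578). Without OX40L-JAG1 replicate B only Maf (3.36) and Irf4 (3.06) of the 6 regulators named as higher passed, with adjusted p up to 0.401 for the others, and without replicate 1 of that group Il12rb1 and Nfil3 did not (adjusted p up to 0.107).

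Surface receptors formed a further group. Il2ra and Il2rb, the alpha and beta chains of the IL-2 receptor, were both higher with anti-CD3-CD28. Il2ra had 11.21 and 11.30 against 8.56 and 7.92 (3.02 ± 0.40, adjusted p = 0.00178), and Il2rb 10.88 and 10.92 against 8.82 and 8.42 (2.28 ± 0.35, 0.00442). All OX40L-JAG1 values of these chains were more than 2 units above the array median, so the receptor transcripts were measurable in both groups. Of 22 costimulatory and TNF family receptors, 5 were higher and none lower, with a median of 0.40. Tnfrsf4, the receptor for OX40L itself, had 9.92 and 9.93 against 7.96 and 7.28 (2.31 ± 0.33, 0.0027). Tnfrsf8, which encodes CD30, had 8.54 and 8.57 against 4.90 and 5.97 (3.12 ± 0.36, 0.000942), and Tnfrsf9, which encodes 4-1BB, had 10.15 and 9.97 against 7.27 and 7.47 (2.69 ± 0.36, 0.00197). The other 2 were Tnfrsf18, which encodes GITR (1.97 ± 0.42, 0.0311), and the CD28 relative Icos (1.83 ± 0.37, 0.0225).

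Inhibitory receptors were higher alongside them, in 5 of 17 with a median of 0.35. Tigit had 8.42 and 8.37 with anti-CD3-CD28, against 4.50 and 3.38 with OX40L-JAG1 (4.46 ± 0.45, adjusted p = 0.000328), the largest difference of this group and a lower bound. Ctla4, which competes with CD28 for its ligands, had 9.78 and 9.77 against 7.50 and 6.85 (2.60 ± 0.34, 0.00177). Lag3, a receptor for MHC class II, had 8.80 and 8.69 against 5.73 and 6.21 (2.78 ± 0.37, 0.00194). Havcr2, which encodes TIM-3 (2.98 ± 0.48), and Entpd1, which encodes the ectonucleotidase CD39 (1.62 ± 0.34), also passed. Pdcd1, which encodes PD-1, had 6.98 and 6.88 against 6.91 and 5.59 and did not (0.68 ± 0.42, 0.536). Of 27 chemokine receptors and ligands, 3 were higher, all of them receptors: Ccr8 by 3.98 ± 0.33 (8.63 and 8.86 against 4.70 and 4.83), Ccr4 by 3.42 ± 0.41 and Cxcr6 by 3.34 ± 0.49. One ligand, the myeloid chemokine Ccl9, was lower (-3.35 ± 0.47, 5.53 and 5.39 against 9.25 and 8.37), and the median of the list was -0.30. Ccr7, which guides naive cells into lymph nodes, had 9.57 and 9.75 against 9.94 and 10.29 and did not pass (-0.45 ± 0.43, 0.751). Without OX40L-JAG1 replicate B, Tnfrsf8, Tigit and Ccr8 passed among the 15 receptors named as higher here and in the sentences on the IL-2 and TNF family receptors. The other 12 had adjusted p up to 0.719, the highest for Tnfrsf18, whose difference was then 1.22. Icos and Entpd1 failed without OX40L-JAG1 replicate 1 (adjusted p up to 0.0705) and, with Tnfrsf18, without anti-CD3-CD28 replicate B (up to 0.0757), while Tnfrsf18 alone failed without anti-CD3-CD28 replicate 1 (0.0703).

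Other genes with large differences belong to none of these families. Ecm1, a secreted matrix protein, had 10.39 and 10.37 against 6.88 and 6.23 (3.82 ± 0.37, adjusted p = 0.000225). Pros1, which encodes protein S, an anticoagulant and ligand of TAM receptors, had 9.08 and 8.68 against 5.47 and 4.60 (3.85 ± 0.46, 0.00102). Cysltr1, a receptor for cysteinyl leukotrienes, had 8.47 and 8.51 against 5.11 and 4.13 (3.87 ± 0.50, 0.00163), and Prelid2 had 8.47 and 8.58 against 5.28 and 4.16 (3.81 ± 0.45, 0.000942). All 4 were higher in both anti-CD3-CD28 arrays by more than 3 units over the brighter OX40L-JAG1 array. Ecm1 passed without OX40L-JAG1 replicate B (3.49, 0.0249) and the others had adjusted p up to 0.0949.

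Genes that respond to IL-2 through STAT5 were higher in 5 of 18, with a median of 0.78. Besides the 2 receptor chains these were Socs2 (2.93 ± 0.66, adjusted p = 0.0376) and Cish (1.56 ± 0.35, 0.0382), which damp cytokine receptor signalling, and the survival factor Bcl2 (2.11 ± 0.40, 0.0162). Bcl2 had 9.03 and 8.84 against 7.11 and 6.54, while its Control Teff values were 9.01 and 9.22. The anti-CD3-CD28 level of Bcl2 thus lay at the Control Teff level, and the OX40L-JAG1 level below it. The calls of Socs2 and Cish were lost without any one of the 4 arrays (adjusted p up to 0.644), and that of Bcl2 without OX40L-JAG1 replicate B (1.82, 0.386).

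Genes of the pathways that the added ligands address are read against the 1.94% of all genes that were higher. Of 25 genes of the NF-kappaB and TRAF pathway, through which OX40 signals, 1 was higher, Birc2, which encodes the TRAF-bound ubiquitin ligase cIAP1 (8.55 and 8.41 against 7.22 and 6.68, 1.53 ± 0.35, adjusted p = 0.0436). The median was 0.11. Nfkb2, the precursor of the p52 subunit, had 7.58 and 7.63 against 6.73 and 6.91 and did not pass (0.79 ± 0.33, 0.291). Of 37 Notch pathway genes, 2 were higher and none lower, with a median of 0.03. These were Rbpj, the DNA-binding partner of Notch (9.66 and 9.56 against 8.05 and 7.86, 1.66 ± 0.38, 0.0422), and its coactivator Maml1 (7.03 and 7.09 against 5.72 and 5.30, 1.55 ± 0.36, 0.0456). The receptors themselves did not pass. Notch1 had 8.53 and 8.48 against 7.60 and 8.20 (0.61 ± 0.36, 0.51), Notch2 had 7.62 and 7.22 against 7.20 and 7.68 with overlapping groups (-0.02 ± 0.39, 0.992), and Notch3 was spread widely in the OX40L-JAG1 arrays, at 4.89 and 6.43 (-0.33 ± 0.65, 0.91). Dtx1, a Notch target, had 6.65 and 6.34 against 7.43 and 7.21, with 9.48 and 9.24 in Control Teff cells (-0.82 ± 0.37, 0.331). Both treated groups thus had less Dtx1 than the fresh cells. The target Hes1 was below the array median in all 4 arrays, at 4.52 and 4.57 against 4.72 and 4.35 (0.01 ± 0.40, 0.996). Leaving out any one of the 4 arrays ended the calls of Birc2, Rbpj and Maml1, with differences then between 1.26 and 1.8.

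Genes of mitosis made up the list with the most calls. Of 36 measured, 29 were higher with anti-CD3-CD28 and none lower. The median difference was 2.11, against 0.041 over all genes. Cenpe, a kinesin of the kinetochore, had 8.64 and 8.72 against 4.63 and 5.06 (3.83 ± 0.33, adjusted p = 9.17e-05). Hmmr, a spindle protein, had 7.01 and 7.20 against 4.09 and 4.01 (3.06 ± 0.36, 0.000942). Both were tight within groups and did not overlap. Kif11, the motor that pushes spindle poles apart, had 9.13 and 9.23 against 6.93 and 5.60 (2.92 ± 0.39, 0.0019), and Mki67, the usual marker of cycling cells, had 10.00 and 10.08 against 8.27 and 6.58 (2.62 ± 0.40, 0.0046). In Kif11 and Mki67 replicate B of the OX40L-JAG1 cells lay more than 1 unit below replicate 1. Birc5, which encodes survivin (3.61 ± 0.45), and the cyclin Ccna2 (2.99 ± 0.43) showed the same order, with 4.74 and 3.31 and with 6.70 and 5.13 in the OX40L-JAG1 arrays.

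DNA replication genes were higher in 11 of 30, with a median of 1.43. Among them were the cyclin of S phase entry Ccne1 (7.10 and 7.37 against 4.50 and 4.53, 2.72 ± 0.47, adjusted p = 0.00936), the polymerase subunit Pole (2.51 ± 0.37, 0.00324) and the helicase subunit Mcm3 (2.38 ± 0.37, 0.00488). Regulators of G1 were higher in 3 of 17, with a median of 0.47. Cdk6, the kinase that starts passage through G1, had 9.26 and 9.38 against 6.83 and 6.38 (2.71 ± 0.34, 0.00138), and the inhibitor Cdkn1a, which encodes p21, was higher as well (2.23 ± 0.45, 0.0229). Without OX40L-JAG1 replicate B, 2 of the 36 mitosis genes passed, Cenpe (4.05) and Hmmr (3.02), with a list median of 1.81, and none of the 30 replication or 17 G1 genes did in limma (17 and 4 were higher at an unadjusted p under 0.05). Mki67 then had 1.77 (0.202). Without OX40L-JAG1 replicate 1, 21 mitosis genes and 8 replication genes passed, and Ccne1 and Cdkn1a did not (adjusted p up to 0.06). Cdkn1a also failed without anti-CD3-CD28 replicate 1 (0.0562).

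Cycling genes are known to share a short promoter element, the cell cycle genes homology region, through which the DREAM and MuvB complexes hold them silent outside the cycle. Its core, TTTGAA (searched on both strands), was found in 22 of 29 mitosis genes with a RefSeq promoter window (75.9%) and in 18 of the 23 of these that were higher (78.3%). It was present in 17.8% of the windows of all 16990 tested genes that had one and in 27.5% of the windows of all genes that were higher. A window runs from 250 bases before to 50 bases after the start of transcription in build GRCm38.p6, and a match is a description of letters, not a shown site. The 250 bases before the start are printed for Kif11 and Mki67, from RefSeq (GRCm38.p6) and in the direction of the gene. Matches to TTTGAA or its reverse complement TTCAAA are in capitals. Both genes have a match before the start and do not stand for the list. In most of the higher mitosis genes with a match, it lay only after the start, as in Hmmr (8 bases) and Plk1 (30 bases). Birc5 and Cenpe had none. Kif11 lies on the plus strand (chr19:37376132-37376381) with a match starting 19 bases before the start, and Mki67 on the minus strand (chr7:135716380-135716629) with matches starting 116 and 98 bases before it.
Kif11: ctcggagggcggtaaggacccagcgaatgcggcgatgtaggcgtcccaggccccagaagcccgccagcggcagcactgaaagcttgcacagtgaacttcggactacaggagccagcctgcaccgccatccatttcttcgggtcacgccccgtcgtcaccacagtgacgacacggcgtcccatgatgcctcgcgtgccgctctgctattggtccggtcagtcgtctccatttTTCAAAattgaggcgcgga
Mki67: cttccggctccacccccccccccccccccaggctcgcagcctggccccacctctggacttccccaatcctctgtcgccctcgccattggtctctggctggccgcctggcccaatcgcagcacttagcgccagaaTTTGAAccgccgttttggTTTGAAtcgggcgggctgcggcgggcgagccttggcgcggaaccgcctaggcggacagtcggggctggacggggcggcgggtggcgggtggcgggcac

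Metabolic genes were higher in part of each list. In glycolysis and the response to low oxygen, 9 of 27 were higher, with a median of 1.39. Egln3, an oxygen-sensing hydroxylase, had 9.20 and 9.29 against 6.42 and 6.06 (3.00 ± 0.56, adjusted p = 0.0152), Bnip3, which targets mitochondria for removal, had 9.10 and 9.28 against 6.99 and 6.57 (2.41 ± 0.34, 0.0027), and the hexokinase Hk2 had 8.28 and 8.21 against 6.27 and 5.77 (2.23 ± 0.46, 0.0243). The transcription factor Hif1a, which drives many genes of this list, had 9.94 and 10.04 against 8.65 and 8.28 (1.53 ± 0.35, 0.0418). The oxidase Ero1a (2.30 ± 0.37) and the growth factor Vegfa (1.97 ± 0.44) passed as well. The main glucose transporter, Slc2a1, had 9.64 and 9.71 against 8.19 and 8.10 and did not pass (1.53 ± 0.38, 0.0578).

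In cholesterol and fatty acid synthesis 5 of 29 were higher, with a median of 0.98. These were the desaturase Fads2 (8.84 and 8.70 against 6.90 and 4.72, 2.96 ± 0.48, adjusted p = 0.00621), the elongase Elovl6 (7.53 and 7.86 against 5.06 and 5.09, 2.62 ± 0.42, 0.0052), the sterol enzymes Lss (2.17 ± 0.44) and Nsdhl (1.90 ± 0.42), and the sterol carrier Stard4 (1.77 ± 0.42). The sterol synthase Hmgcs1 (1.81 ± 0.47, 0.0723) and the desaturase Scd1 (2.37 ± 0.63, 0.0787) did not pass. Of 30 genes of amino acid supply and the integrated stress response, 3 were higher, with a median of 0.70: the serine synthesis enzyme Psat1 (7.93 and 8.00 against 5.45 and 4.95, 2.77 ± 0.34, 0.00102), the mitochondrial folate enzyme Mthfd2 (1.77 ± 0.39, 0.0369) and the tryptophanyl-tRNA synthetase Wars (1.65 ± 0.37, 0.0392). The calls of all 14 metabolic genes given here as higher were lost without OX40L-JAG1 replicate B. Their differences were then 1.3 to 2.82, with 1.87 for Fads2. These genes were chosen for passing in the full fit, which shares the remaining arrays, so their kept direction is no separate support. Without each of the other 3 arrays, 7 of the 14 passed (adjusted p of the 14 up to 0.111). Hk2, Hif1a, Vegfa, Stard4 and Wars failed in all 3 of these fits, Lss in 2 (without anti-CD3-CD28 replicate 1 or OX40L-JAG1 replicate 1), Mthfd2 in 2 (without either anti-CD3-CD28 array), Nsdhl without anti-CD3-CD28 replicate B and Egln3 without OX40L-JAG1 replicate 1.

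Interferon-stimulated genes were higher in 14 of 39, with a median of 1.33. Ifi204 and Trim30d, which are not on that list, are given with it because interferon is known to induce their families. The largest difference among the 430 higher genes was that of Ifi204, a PYHIN family sensor of DNA that is induced by interferon. It had 7.93 and 7.74 with anti-CD3-CD28, against 2.23 and 1.91 with OX40L-JAG1 and 2.10 and 2.32 in Control Teff cells. The difference was 5.76 ± 0.39 (adjusted p = 1.62e-05), or 54.3-fold, and both OX40L-JAG1 arrays lay near the bottom of the scale. With the deposited values the largest difference among the 8 genes named as higher in this paragraph was 5.55. Trim30d had 7.65 and 7.10 against 3.72 and 3.18 (3.92 ± 0.41, 0.000478). Both belong to families of closely related copies whose probes could share signal, so which copy was measured is uncertain. The GTPases Mx2 (6.41 and 6.79 against 3.22 and 3.77, 3.11 ± 0.42, 0.00197), Gbp5 (7.92 and 7.97 against 5.11 and 4.90, 2.94 ± 0.32, 0.000652) and Mx1 (2.75 ± 0.53, 0.0173), which act against viruses and bacteria inside cells, were higher. So were Oas2, which senses double-stranded RNA (2.64 ± 0.43, 0.00635), Stat2, part of the factor that type I interferon activates (8.89 and 8.71 against 6.91 and 5.80, 2.44 ± 0.40, 0.00617), and the ubiquitin-like modifier Isg15 (7.96 and 7.99 against 6.39 and 4.82, 2.37 ± 0.47, 0.0216). In Stat2 and Isg15, as in Kif11, OX40L-JAG1 replicate B was the lowest array. Ifi204 (5.60), Trim30d (3.65) and Gbp5 (2.83) passed without that array and the other 5 did not (adjusted p up to 0.598). Of the 39 list members, Gbp5 alone passed without it, with a list median of 0.81, and 12 passed without OX40L-JAG1 replicate 1, with a median of 1.74. Mx1 failed without OX40L-JAG1 replicate 1 (0.102) and Isg15 without anti-CD3-CD28 replicate B (0.0522).

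The interferon-stimulated response element is a promoter sequence bound by IRF factors. Its pattern, GAAA followed by any 2 bases and a second GAAA (searched on both strands), was found in 17 of 30 interferon-stimulated genes with a promoter window (56.7%), in 8 of the 9 of these that were higher (88.9%), in 3.87% of all tested genes with a window and in 7.89% of all genes that were higher. The 250 bases before the start are printed for 4 interferon-stimulated genes with a match, from RefSeq (GRCm38.p6) and in the direction of the gene, with each match or its reverse complement in capitals. Isg15 (chr4:156200819-156201068, minus strand) holds 3 overlapping matches that start 78, 72 and 66 bases before the start of transcription. Gbp5 (chr3:142496684-142496933, plus strand) has 1 that starts 165 bases before it, Stat2 (chr10:128270248-128270497, plus strand) 1 at 222 and Trim30d (chr7:104507850-104508099, minus strand) 1 at 41.
Isg15: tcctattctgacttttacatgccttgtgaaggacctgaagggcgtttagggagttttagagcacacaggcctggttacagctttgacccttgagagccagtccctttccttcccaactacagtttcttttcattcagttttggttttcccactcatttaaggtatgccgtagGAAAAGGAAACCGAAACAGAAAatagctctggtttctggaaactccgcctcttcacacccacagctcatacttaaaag
Gbp5: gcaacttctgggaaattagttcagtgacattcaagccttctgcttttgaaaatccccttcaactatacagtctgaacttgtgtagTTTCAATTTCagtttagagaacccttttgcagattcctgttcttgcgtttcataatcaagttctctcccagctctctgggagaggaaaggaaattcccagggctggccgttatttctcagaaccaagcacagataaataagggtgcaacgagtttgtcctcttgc
Stat2: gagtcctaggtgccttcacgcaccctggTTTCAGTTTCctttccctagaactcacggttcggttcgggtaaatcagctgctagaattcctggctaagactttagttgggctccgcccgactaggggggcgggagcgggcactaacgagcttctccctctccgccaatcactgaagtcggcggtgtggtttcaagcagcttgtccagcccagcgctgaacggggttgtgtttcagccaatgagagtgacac
Trim30d: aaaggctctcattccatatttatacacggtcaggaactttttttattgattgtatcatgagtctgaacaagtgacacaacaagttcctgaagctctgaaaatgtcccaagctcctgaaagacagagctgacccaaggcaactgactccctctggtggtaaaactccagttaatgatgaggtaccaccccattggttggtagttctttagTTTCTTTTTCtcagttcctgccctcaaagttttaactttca

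Patterns of 4 other elements were searched in the same windows of the matching lists. The NF-kappaB pattern, GGGA followed by any 4 bases and CC, was found in 14 of 21 NF-kappaB and TRAF pathway genes (66.7%), in 0 of the 1 of these that was higher, in 29.8% of all genes that were higher and in 25.9% of all tested genes. The Notch pattern GTGGGAA of RBPJ was found in 6 of 30 Notch pathway genes (20%), in 0 of the 2 that were higher, in 6.43% of all higher genes and in 7.09% of all tested genes. The E2F pattern TTTCCCGC was found in 4 of 26 DNA replication genes (15.4%), in 2 of the 9 that were higher (22.2%), in 3.51% of all higher genes and in 1.61% of all tested genes. The sterol pattern TCACNCCAC was found in 1 of 23 lipid synthesis genes (4.35%), in 0 of the 4 that were higher, in 1.46% of all higher genes and in 1.43% of all tested genes.

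Transcripts of neutrophils, basophils and myeloid cells held the largest differences in the lower direction. Of the 64 lower genes, 20 stood in the lists of other cell types, against 3 of the 430 higher genes. S100a8, a subunit of the neutrophil protein calprotectin, had 4.32 and 5.08 with anti-CD3-CD28, against 11.81 and 11.08 with OX40L-JAG1 and 5.11 and 5.15 in Control Teff cells (-6.75 ± 0.56, 107-fold, adjusted p = 8.08e-05). Its partner S100a9 had 4.27 and 4.36 against 10.39 and 10.04 (-5.90 ± 0.56, 0.000201). Ngp and Ltf, proteins of neutrophil secondary granules, had 4.41 and 4.35 against 10.41 and 10.40 (-6.03 ± 0.38, 1.62e-05) and 4.50 and 4.45 against 9.77 and 9.40 (-5.11 ± 0.43, 8.08e-05). In all 4 genes both OX40L-JAG1 arrays were among the bright part of the array and both anti-CD3-CD28 arrays near or under its median. Chil3 (-6.00 ± 0.70), the antimicrobial peptide Camp (-5.46 ± 0.67) and Lcn2 (-3.88 ± 0.62) were also lower. In all, 9 of 18 neutrophil genes were lower and none higher, with a median of -2.41. Without OX40L-JAG1 replicate B 7 were lower, with a median of -3.59, and without its replicate 1 6 were, with a median of -1.43.

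The basophil and mast cell list held 4 lower genes among 17. The basophil protease Mcpt8 had 5.20 and 4.92 with anti-CD3-CD28, against 10.51 and 10.08 (-5.24 ± 0.40, adjusted p = 4.87e-05). Cpa3, a protease of both cell types (-4.05 ± 0.57), the protease Prss34 (-3.55 ± 0.47) and the histamine-forming enzyme Hdc (-2.78 ± 0.43) followed. The 2 higher genes of that list were Il4, which T cells also make, and Ifitm1 (2.70 ± 0.58, 0.0298). Without OX40L-JAG1 replicate B neither passed (Ifitm1 2.21, 0.589), 3 genes of the list were lower and its median moved from -0.70 to -1.30. Without replicate 1 the median was -0.11, 4 genes were lower and Ifitm1 did not pass (0.0605). Fcer1a, the IgE receptor chain of these cells, differed sharply between the OX40L-JAG1 arrays, with 7.31 in replicate 1 and 3.11 in replicate B, against 2.12 and 2.22 (-3.04 ± 0.85, 0.0955, and -5.14, 0.0452 without replicate B). Of 23 myeloid and dendritic cell markers 7 were lower, with a median of -0.58. Lyz2 and Tyrobp were the 2 that passed without OX40L-JAG1 replicate B (median -0.91), and Cybb, Itgam and Lyz2 the 3 that passed without replicate 1 (median -0.54). The 7 lower markers included the lysozyme Lyz2 (5.20 and 4.89 against 10.37 and 9.74, -5.01 ± 0.60, 0.00102) and the oxidase subunit Cybb (-4.07 ± 0.56). Also among them were the adaptors Tyrobp (-3.17 ± 0.65) and Fcer1g (-2.48 ± 0.47), the integrin Itgam (-2.98 ± 0.43) and the beta-glucan receptor Clec7a (-2.26 ± 0.46). The other 16 did not pass. These held Csf1r (-0.57 ± 0.45, adjusted p = 0.679), Adgre1 (-0.49 ± 0.41, 0.7), Itgax (-0.63 ± 0.48, 0.656) and Cd68 (-0.36 ± 0.45, 0.838). The myeloid chemokine Ccl6 was lower too (-4.11 ± 0.77, 0.0157). None of 16 B cell markers or 10 MHC class II genes passed in limma (3 and 4 were lower at an unadjusted p under 0.05), nor did any of 8 erythroid and platelet markers (1 higher at an unadjusted p under 0.05).

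The neutrophil list had a summed level of 13.64 and 12.86 on the log2 scale in the OX40L-JAG1 Teff arrays, against 9.17 and 9.39 with anti-CD3-CD28 and 9.80 and 9.82 in Control Teff cells. For the basophil and mast cell list it was 11.94 and 11.28, against 9.77 and 9.79 and against 8.85 and 8.84, and for the myeloid list 12.57 and 11.70, against 10.64 and 10.65 and against 10.56 and 10.62. OX40L-JAG1 Treg arrays had 11.31 and 10.99 for the neutrophil list. A summed level is led by the brightest genes. The mean level of the basophil and mast cell list was 6.13 and 5.10, against 4.64 and 4.67 with anti-CD3-CD28. The CD4 T cell identity list had a summed level of 13.43 and 13.24 in OX40L-JAG1 Teff cells. It had 13.72 in both anti-CD3-CD28 arrays and 14.66 and 14.70 in Control Teff cells. Its mean level was 9.15 and 8.88, against 9.51 and 9.42 and against 10.28 and 10.27. Among its 13 genes 1 was higher with anti-CD3-CD28, Ubash3a (1.76 ± 0.41, adjusted p = 0.0437). Without OX40L-JAG1 replicate B the difference of Ubash3a was 0.99 and its call was lost. In bulk RNA, fewer cells of a type and less RNA per cell cannot be told apart, and the part of these other transcripts in the T cell gene differences was not tested. Of the 19 genes of other cell types given as lower, 10 passed without OX40L-JAG1 replicate B, and Lcn2, Cpa3, Hdc, Cybb, Itgam, Fcer1g, Clec7a, Ccl6 and Ccl9 did not (adjusted p up to 0.269). Without replicate 1 of that group, Lcn2, Tyrobp, Fcer1g, Clec7a and Ccl6 failed (up to 0.234). Clec7a failed without either anti-CD3-CD28 array and Tyrobp without replicate 1 of these (up to 0.0562).

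**Figure D3:**
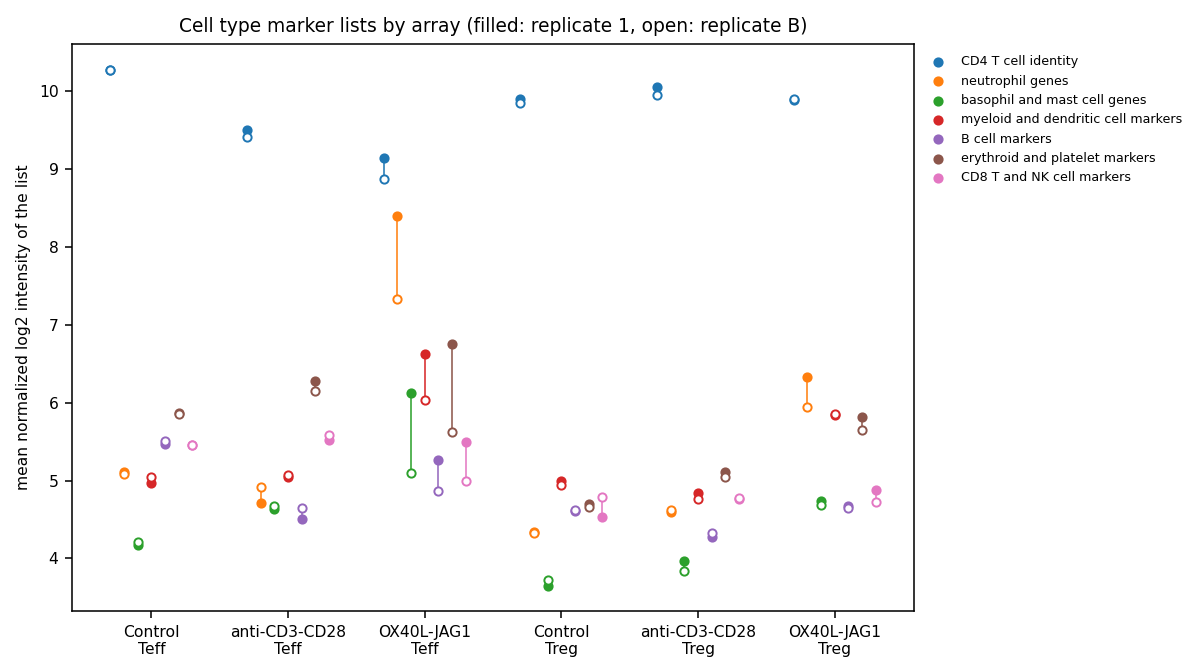
Mean normalized log2 intensity of 7 cell type marker lists (y axis) in each array of the 6 groups (x axis), with replicate 1 filled and replicate B open. Neutrophil genes are at 8.40 and 7.33 in OX40L-JAG1 Teff cells, against 4.71 and 4.92 in anti-CD3-CD28 Teff cells, and CD4 T cell genes are the highest list in each array.

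The heat shock list held 2 lower genes and the resting T cell list 1. Hspa1a and Hspa1b, near-identical genes for the inducible chaperone HSP70 whose probes may share signal, had 3.76 and 3.53 and 3.44 and 4.27 with anti-CD3-CD28. With OX40L-JAG1 they had 8.64 and 8.28 and 9.14 and 8.23, and in Control Teff cells 11.78 and 11.77 and 12.37 and 12.31. The differences were -4.81 ± 0.33 (adjusted p = 1.62e-05) and -4.83 ± 0.58 (0.00102). Fresh cells thus had the most of both transcripts, OX40L-JAG1 cells an intermediate level and anti-CD3-CD28 cells the least. The other 15 of 17 heat shock and chaperone genes did not pass, and the list median was 0.53. Of 30 resting T cell genes 1 was lower, the actin linker Actn1 (7.82 and 7.98 against 9.67 and 9.95, with 11.45 in both Control Teff arrays, -1.91 ± 0.33, 0.00851). The median of these 30 was -0.40. Il6ra, the IL-6 receptor chain of naive cells, had 7.58 and 7.43 against 8.80 and 8.74 (-1.27 ± 0.33, 0.0728), and S1pr1, which lets T cells leave lymph nodes, had 8.86 and 8.50 against 9.94 and 9.60 (-1.09 ± 0.36, 0.16). Both did not overlap between the groups and neither passed. Il7r, the IL-7 receptor chain of resting cells, had 10.33 and 10.39 against 10.49 and 10.74 (-0.25 ± 0.38, 0.873). Hspa1a (-4.99, 0.00234) and Hspa1b (-5.29, 0.0359) passed without OX40L-JAG1 replicate B, and Actn1 did not (-1.77, 0.232).

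Sex-linked transcripts also differed. The Y-linked translation factor gene Eif2s3y had 3.61 and 3.43 with anti-CD3-CD28, against 8.58 and 7.34 with OX40L-JAG1 and 6.74 and 6.69 in Control Teff cells (-4.44 ± 0.40, adjusted p = 0.000119). Xist, the RNA that silences an X chromosome in female cells, had 10.19 and 10.41 against 8.16 and 7.62, with 10.73 and 10.75 in Control Teff cells (2.41 ± 0.38, 0.00516, and 2.14, 0.208 without OX40L-JAG1 replicate B). The Y-linked Kdm5d had 3.55 and 3.00 against 5.89 and 4.33 (-1.84 ± 0.53, 0.103) and Uty 3.85 and 3.75 against 7.16 and 5.22 (-2.39 ± 0.58, 0.0552). Eif2s3y and Xist were thus both above the array median in the OX40L-JAG1 and the fresh arrays, while the anti-CD3-CD28 arrays had Xist above it and all 3 Y-linked genes below it. In Treg cells the treatment difference was -4.79 for Eif2s3y and 2.89 for Xist. The sex of the cells and the treatment cannot be told apart in these arrays.

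Lists that overlap with those above gave the following counts. T cell activation genes were higher in 11 of 29, with a median of 1.33, among them Gzmb, Il2ra, Irf4, Ifng and Tnfrsf9. Genes of the Treg signature were higher in 12 of 31 and lower in none, with a median of 0.87, and 23 had a difference above 0. Among the 12 were Il10, Tigit, Il2ra, Socs2 and Tnfrsf9, of which Il2ra and Tnfrsf9 also stand in the T cell activation list. Foxp3 itself (-1.29), Ikzf2 (-0.97), Gpr83 (-0.79) and Izumo1r (-0.61) lay in the other direction and did not pass. Apoptosis regulators were higher in 4 of 25, with a median of 0.51, among them Birc5, Bcl2 and the death-promoting Bcl2l11 (2.28 ± 0.41, adjusted p = 0.0119). No gene of 31 immediate early genes passed in limma (at an unadjusted p under 0.05, 5 were higher and 1 lower). Egr1, which is induced within hours of antigen signalling, had 6.63 and 6.64 against 5.57 and 5.00, with 7.67 and 7.60 in Control Teff cells (1.35 ± 0.52, 0.245). Without OX40L-JAG1 replicate B, 2 T cell activation genes, 2 Treg signature genes and no apoptosis regulator passed (14, 13 and 4 were higher at an unadjusted p under 0.05 in limma).

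**Figure D4:**
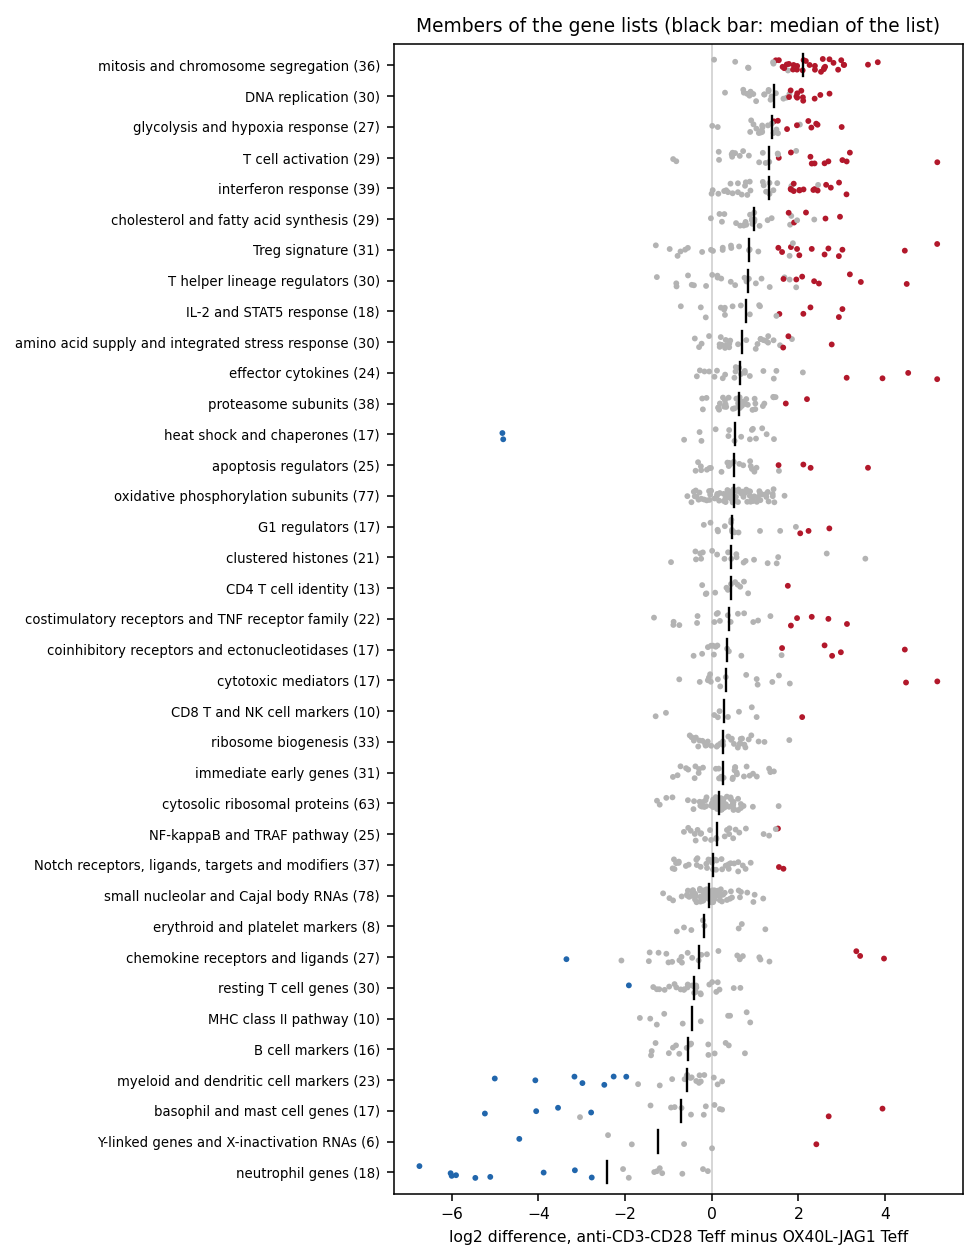
Log2 difference, anti-CD3-CD28 Teff minus OX40L-JAG1 Teff (x axis), of each measured member of 37 gene lists, with the number of members in brackets. Red points were higher and blue points lower at an adjusted p under 0.05, grey points did not pass, and the black bar is the list's median. Mitosis genes have the highest median (2.11) and neutrophil genes the lowest (-2.41).

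The levels in Control Teff cells were set beside those of the 2 treated groups. Of the 430 higher genes, Control Teff lay between the treated groups in 314. The anti-CD3-CD28 mean was above Control Teff in 394 and the OX40L-JAG1 mean below it in 350. The genes were chosen for a difference between the treated groups, which by itself favours another group lying between them. The shares over all genes were not counted. The Control Teff mean was within 1 log2 unit of OX40L-JAG1 in 239 and of anti-CD3-CD28 in 147. Gzmb (5.26 and 5.08), Il10 (3.93 and 4.19), Il13 (4.34 and 4.52) and Ifi204 lay near the OX40L-JAG1 level in fresh cells. Maf (6.72 and 6.81), Irf4 (6.25 and 6.13), Cenpe (6.04 and 5.95) and Trim30d (6.12 and 6.28) lay between the treated groups. Of the 64 lower genes, Control Teff was within 1 unit of anti-CD3-CD28 in 48 and of OX40L-JAG1 in 4. The neutrophil, basophil and myeloid transcripts were thus near the anti-CD3-CD28 level in fresh cells, while Hspa1a, Hspa1b and Actn1 were highest there.

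The same treatments were compared in Treg cells, on 4 other arrays. Treg and Teff cells were kept together during treatment, so these arrays may stem from the same cultures and are not an independent repeat. Of the 430 higher genes 412 had a difference of the same sign in Treg cells, and of the 64 lower genes 63 did. The share of same signs over all 22180 genes was not counted. Gzmb differed by 5.84 there, Tnfrsf8 by 4.81, Il12rb2 by 4.57, Il10 by 3.30, Ifi204 by 3.13 and S100a8 by -5.86. The test of the difference between the Teff and the Treg difference passed in 5 genes (0.0225% of 22180). Il13 differed by 4.53 in Teff and 1.40 in Treg cells, where its arrays had 6.28 and 6.29 against 4.99 and 4.77 (difference of differences 3.13 ± 0.45, adjusted p = 0.0449). Sytl2, a granule transport protein, differed by 3.17 in Teff cells (7.76 and 7.75 against 4.62 and 4.55) and by -0.12 in Treg cells (6.78 and 6.94 against 7.06 and 6.91), which gave 3.30 ± 0.41 (0.0263). In Gbp5 the Treg arrays had 8.24 and 8.19 against 7.79 and 7.98, a difference of 0.33 (2.61 ± 0.35, 0.038). Cnih1, which exports proteins from the endoplasmic reticulum, differed by 2.20 in Teff and -0.33 in Treg cells (2.53 ± 0.36, 0.0449). The anti-CD3-CD28 Teff arrays were above both OX40L-JAG1 Teff arrays in these 4 genes. Ltf differed by -5.11 in Teff and -0.13 in Treg cells, where its 4 treated arrays were between 6.32 and 6.52 and Control Treg cells had 4.43 and 4.21 (-4.98 ± 0.46, 0.00206). Other cytokines did not pass this test, among them Il4 (2.97 ± 0.56, 0.124) and Ifng (2.27 ± 0.43, 0.126). Without OX40L-JAG1 Teff replicate B no gene passed it in limma (at an unadjusted p under 0.05, 392 were higher and 375 lower), and without replicate 1 of that group 19 did.

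**Figure D5:**
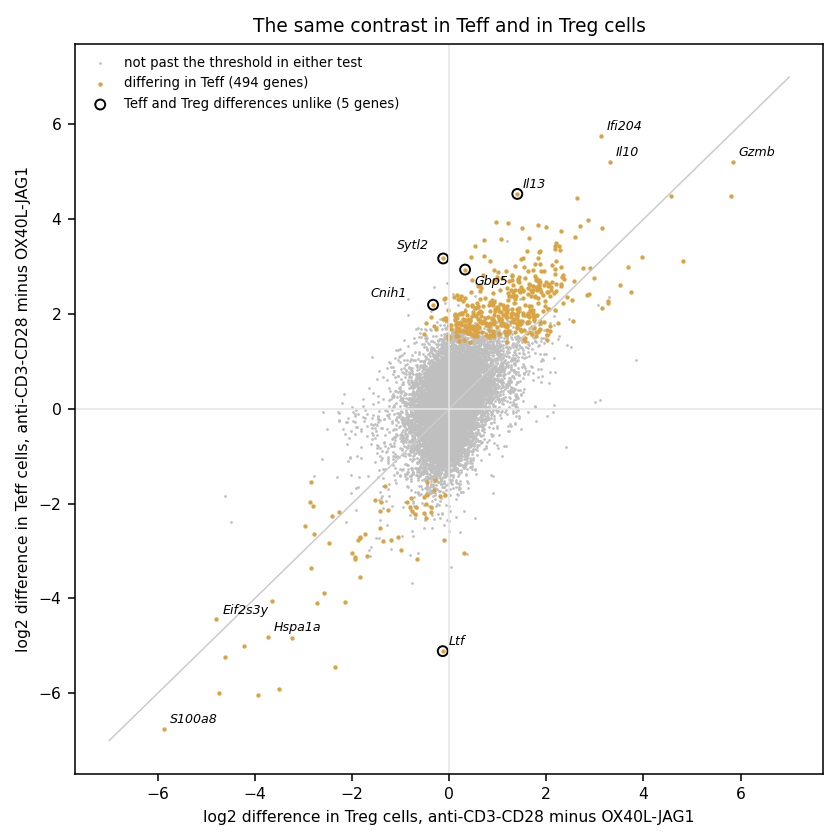
Log2 difference between anti-CD3-CD28 and OX40L-JAG1 in Treg cells (x axis) and Teff cells (y axis) for 22180 genes, with the line of equal difference. Orange points are the 494 genes that passed in Teff cells and circles the 5 genes whose differences were unlike. Ltf sits at -5.11 in Teff and -0.13 in Treg cells, while Gzmb and S100a8 lie near the line.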

How the data were processed

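RNA of 12 sorted mouse CD4+ T cell samples was measured with 1 Affymetrix Mouse Gene 2.0 ST array each. The deposited values are log2 intensities that the authors made with RMA, per the submitters' processing notes (RMA version: not given in the sources used here). All 41345 table entries were quantile normalized over the 12 arrays. Entries with 1 gene symbol in the array annotation (23521; 1814 had several and 16010 none) were kept, of which 23328 took their symbol from RefSeq (GRCm38.p6) by Entrez ID. For 1082 genes with several entries the one with the highest mean was used, leaving 22180 genes. Quantile normalization gives each array the same distribution, so a shift shared by most genes cannot be seen.

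Groups were fitted with limma 3.58.1 in R 4.3.3 on all 12 arrays (6 residual degrees of freedom), with 1 weight per group (arrayWeights), eBayes and two-sided Benjamini-Hochberg adjusted p under 0.05. The procedure was tested on simulated data. Named genes are the 15 largest in each direction that passed without overlap, the 5 largest of each sign in the Teff against Treg test that passed, up to 6 members of each list that passed and up to 4 that did not, and a list of key genes; predicted, small RNA and receptor segment genes are not named among the largest. Hes1 lies outside this rule and was chosen after its values were seen. The members, lists and tests were chosen with earlier results of these data known. The 15 correlations of replicate deviations between groups were -0.0273 to 0.218, with 0.00581 between the treatments compared. The highest was that of OX40L-JAG1 Teff with OX40L-JAG1 Treg cells, which were kept together. The main fit, the Teff against Treg test included, did not pair replicates, and the replicate block is an alternative. Alternatives were other normalizations, weights, filters and array sets, and leaving out each array. Promoter sequences are from RefSeq.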

Additional observations from a re-analysis of the deposited data

Results flagged for a closer look

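In 5 genes the difference between anti-CD3-CD28 and OX40L-JAG1 cells was unlike in Teff and Treg cells by a test of the difference itself (limma, adjusted p from 0.00206 to 0.0449). The Teff difference exceeded the Treg difference by 3.30 in Sytl2, by 3.13 in Il13, by 2.61 in Gbp5 and by 2.53 in Cnih1. For Ltf the Teff difference minus the Treg difference was -4.98. Each rests on the OX40L-JAG1 Teff arrays, which varied more than any other group, and none passed without replicate B of that group.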

How the results depend on the processing

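The comparison of anti-CD3-CD28 with OX40L-JAG1 Teff cells gave 494 genes. It gave 1419 with the deposited values (91.3% higher, against 87%), 1894 after scaling to a common median (96.4% higher, median of all genes 0.131), 3637 with equal weights (68.5% higher), 895 with trend and robust shrinkage, 883 with dim genes left out and 11 with only the 4 arrays compared (36.4% higher). Quantile normalization over the tested genes gave 383, 1 weight per array 497, the mean of all entries of a gene 482 and the replicate block 476. With 2 arrays a group, both lie equally far from their mean. Weights per array therefore cannot set replicate B apart from replicate 1, and the count of 497 is no test of that. Leaving out 1 array gave between 39 (without OX40L-JAG1 replicate B) and 622 (without its replicate 1); all calls shared with the 494 kept their direction. The 5 genes of the Teff against Treg test became 18 with the deposited values, 17 after median scaling, 113 with equal weights, 60 with trend and robust shrinkage, 12 with dim genes left out, 2 with only the 8 cultured arrays and 1 with the replicate block, and between 0 and 19 without 1 array. The causes were not tested beyond what each alternative changes. With 2 arrays a group and no detection call, the number of arrays limits the precision, and low levels are bounds.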

Other observations

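Gene families of general cell function are given beside the 2.23% of all genes that passed, 1.94% higher and 0.289% lower. None of 77 oxidative phosphorylation subunits passed in limma (13 higher at an unadjusted p under 0.05), with a median difference of 0.51 that was 0.00 without OX40L-JAG1 Teff replicate B and 1.14 without replicate 1. Ndufs1, a subunit of complex I, had 7.53 and 7.57 with anti-CD3-CD28 and 7.20 and 5.05 with OX40L-JAG1 (1.43 ± 0.45, adjusted p = 0.14). None of 63 cytosolic ribosomal proteins (at an unadjusted p under 0.05, 1 was higher and 2 lower; median 0.17), 33 ribosome biogenesis genes (5 higher, median 0.27), 78 small nucleolar and Cajal body RNAs (1 higher and 2 lower, median -0.07) or 21 clustered histones (5 higher, median 0.45) passed either. Of 38 proteasome subunits 2 were higher, Psmd1 (2.20 ± 0.50, adjusted p = 0.0407) and Psmc1 (1.71 ± 0.37, 0.0339), and neither passed without OX40L-JAG1 replicate B (1.32, 0.814 and 1.38, 0.594). The histone gene H2bc9 had 8.75 and 8.32 against 6.67 and 3.31 (3.54 ± 0.93, 0.0716).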
